A study of Rattus norvegicus with 12 samples.

Results

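The rat miRNAs rno-miR-425 and rno-miR-191 are processed from neighbouring hairpins on chromosome 8. They were taken by name, without their star strands, and are 2 of the 677 rat miRNAs on the array. rno-miR-425 was chosen by its difference between the offspring of control and high fat-fed dams in these same signals, so that difference is described here without a test. rno-miR-191 was added as its neighbour. RNA came from the soleus, a hind limb muscle, of 12 male Sprague-Dawley offspring aged 1 year, with 1 array for each rat. The dams of 6 rats ate standard chow (control) and those of the other 6 a chow rich in lard fat and sucrose (high fat), from before mating until weaning. The offspring of both groups ate standard chow after weaning, so the groups differ by the diet of the dam and not by their own. The labels do not say which rats shared a dam, and any p-value therefore measures only the spread between these rats. The arrays lay on 2 slides, each with 3 control and 3 high fat rats.

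A miRNA hairpin is excised from a long primary transcript and cut into a duplex, of which 1 strand usually enters the silencing complex while the other, the star strand, is mostly degraded. Hairpins that lie close together on 1 strand of the genome are commonly cut from the same transcript, and miR-191 and miR-425 are a known example in mammals. The mature miRNA pairs with mRNAs mainly through its seed, bases 2 to 8 from the 5′ end. miR-191 is widely expressed and often serves as a reference in qPCR, and human miR-425 is known to act on the mRNA of the natriuretic peptide NPPA.

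These sequences, from RefSeq on GRCr8, are shown because the array reads the 4 strands separately and they behaved differently. Capitals mark the seed. The array's miR-425 and miR-191 are the strands from the 5′ arm and miR-425* and miR-191* those from the 3′ arm, marked 5p and 3p in the RefSeq names.
rno-miR-425-5p (miR-425), chr8:118143094-118143116, plus strand: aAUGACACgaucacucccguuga
rno-miR-425-3p (miR-425*), chr8:118143135-118143155, plus strand: aUCGGGAAuaucguguccgcc
rno-miR-191a-5p (miR-191), chr8:118142641-118142663, plus strand: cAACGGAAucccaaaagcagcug
rno-miR-191a-3p (miR-191*), chr8:118142683-118142704, plus strand: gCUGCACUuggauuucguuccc
No other of the 693 mature rat miRNA names in RefSeq had the seed of miR-425, miR-425* or miR-191. The seed of miR-191* was shared with miR-17-2-3p alone, which was detected on 0 of the 12 arrays.

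The hairpins themselves are shown because they give the order of the strands in the transcript, with the mature strands in capitals. Mir191 spans 91 bases and Mir425 spans 83 bases.
Mir191, chr8:118142627-118142717, plus strand: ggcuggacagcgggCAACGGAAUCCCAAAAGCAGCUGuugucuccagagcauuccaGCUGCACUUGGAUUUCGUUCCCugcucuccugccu
Mir425, chr8:118143084-118143166, plus strand: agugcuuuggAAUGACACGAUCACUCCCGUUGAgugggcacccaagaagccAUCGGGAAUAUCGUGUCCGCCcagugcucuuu
The 2 hairpins are separated by 366 bases, and the span of the gene Dalrd3 holds both. A further miRNA gene, Mir3555, lies on the opposite strand over Mir191. Its mature product, named rno-miR-191b in RefSeq and miR-3555 on the array, is shown because it is antisense to miR-191*, with the bases complementary to miR-191* in capitals.
rno-miR-191b, chr8:118142682-118142702, minus strand: GAACGAAAUCCAAGUGCAGCu

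Of the 2 members, miR-425 was detected on all 12 arrays and miR-191 on none. The software listed miR-191 at 0.1, the value it gave to every undetected miRNA, in 6 of 6 control and 6 of 6 high fat rats. The star strands showed the opposite pattern, with miR-191* detected on all 12 arrays and miR-425* on 0. Antisense miR-3555 was detected on 0 arrays. The hairpins were thus read through a single strand of each hairpin, the 5′ strand for miR-425 and the 3′ strand for miR-191. For an undetected strand, absence and a probe that does not read it cannot be told apart here. The signals thus do not show which strand of a hairpin is the more abundant. No abundance ratio, co-variation or diet difference could be given for miR-191 itself. Values of miR-191* are reported in its place, a choice made after the detection was seen.

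The array held 205 miRNAs together with their star strand. In 73 of these pairs neither strand was detected on any array. In 60 the unstarred strand was on all arrays and the star strand on none, and in 14 both were on all arrays. The reverse, a star strand on all arrays and its partner on none, was found in 9 pairs, and in 5 more the star strand was on some arrays and its partner on none. Beside miR-191 the 9 were miR-202, miR-208, miR-296, miR-362, miR-511, miR-551b, miR-675 and miR-770. The lowest signal flagged as detected was at most 6.72 units on any array, and the 0.1 listed for an undetected miRNA stands for no measured level.

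The listed signal of miR-425, before any scaling, was low. On the first slide it was 23.3 units in control rat C73, 23.6 in C60 and 28.1 in A110. In the high fat rats of that slide it was 40.3 in C51, 45.0 in H1 and 46.0 in H3. All 3 high fat rats of the first slide were above its 3 controls, and nothing is read from this because this contrast chose miR-425. The share of all miRNAs with such a separation was counted only for scaled signals, at 8 of 193 (4.15%). On the second slide it was 30.1 in control rat H10, 34.6 in A75 and 59.9 in A89. The high fat rats there had 49.0 in H20, 51.7 in A37 and 55.9 in C25. Control rat A89 had the highest signal of all 12 rats, and the groups of the second slide overlapped. The signal was 4.18 to 11.6 times the lowest detected signal of its own array, and the software's own error was 10.3 to 15.5% of it.

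miR-191* was read closer to the limit, at 14.4 to 22.4 units with a median of 19.0, or 2.94 to 4.40 times the lowest detected signal of each array. Its listed error was at most 16.8% of the signal. Control rats ran from 14.4 to 22.4 units and high fat rats from 14.4 to 21.5, so their ranges overlapped almost fully.

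The unscaled signal of miR-425 followed the brightness of the array. Brightness was taken from the 162 miRNAs that every array detected, as the 75th percentile of their signals. It was 864 to 1403 units on the first slide and 1230 to 1911 on the second. Over the 12 rats the log2 signal of miR-425 had Pearson's r = 0.82 with log2 brightness (two-sided permutation test, p = 0.0010, adjusted p = 0.0030 over 3 relations) and Spearman's rho = 0.80 (permutation p = 0.0030, adjusted p = 0.0090). Those permutations did not hold slide or diet fixed. Without A37 and C60, the rats farthest from the median brightness, r was 0.76. It was 0.62 on the first slide (exact permutation p = 0.188, n = 6) and 0.90 on the second (exact permutation p = 0.0347, n = 6).

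For miR-191* the same relation was weaker over all rats, with r = 0.27 (permutation p = 0.387, adjusted p = 0.581) and rho = 0.36 (permutation p = 0.258, adjusted p = 0.388). Without A37 and C60 it was 0.26. Within the slides it was 0.65 on the first (exact permutation p = 0.163, n = 6) and 0.75 on the second (exact permutation p = 0.119, n = 6). The median r with brightness of the 162 miRNAs was 0.63. Of these, 19 had a higher r than miR-425 and 7 a lower r than miR-191*. The relations were chosen after the signals were seen.

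**Figure D1:**
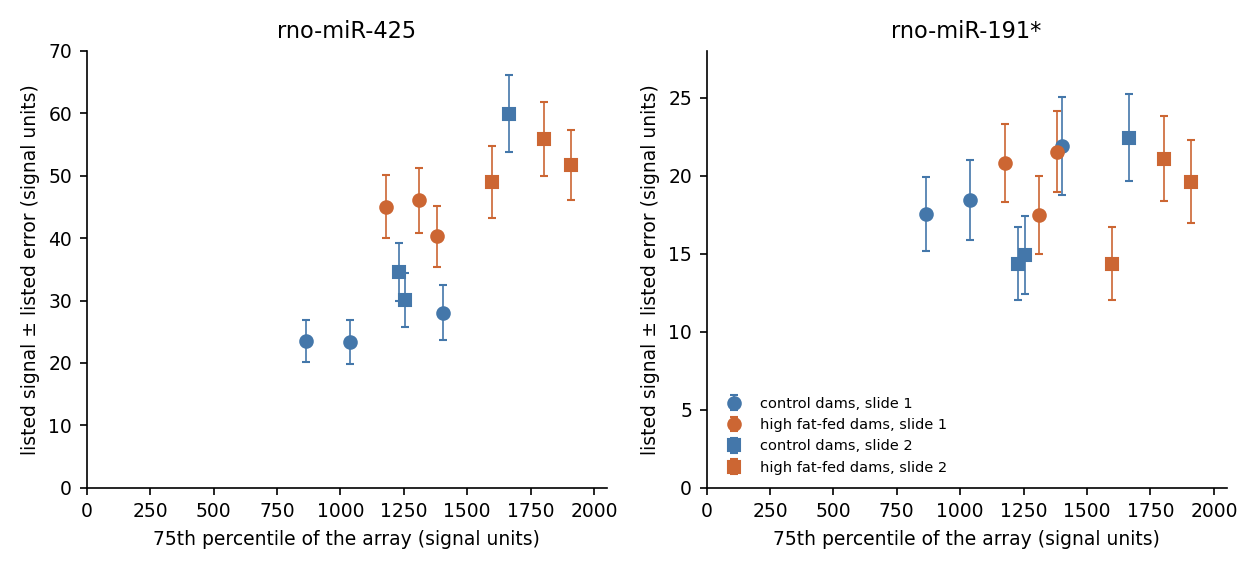
Listed signal of rno-miR-425 (left) and rno-miR-191* (right) against the 75th percentile of the array, both in signal units. Each point is 1 rat with the error listed by the software, blue for control and orange for high fat, circles for the first slide and squares for the second. Over all rats miR-425 rises with brightness (r = 0.82), while miR-191* stays between 14.4 and 22.4 units (r = 0.27). Within the slides r is 0.62 and 0.90 for miR-425 and 0.65 and 0.75 for miR-191*.

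Each array was therefore divided by its brightness. Scaled miR-425 was 27.1 at the lowest, 34.7 at the median and 48.7 at the highest in the 6 control rats, and 36.7, 41.8 and 51.8 in the 6 high fat rats. The means were 35.6 ± 7.62 (SD, n = 6) and 43.2 ± 5.54 (SD, n = 6), and the ranges overlapped. The log2 difference, high fat minus control, was 0.29 (SE 0.157), or 1.23-fold. This is the opposite direction to the one the study gives for miR-425. The study's methods count all 6 control rats but fewer high fat rats, while its table of traits counts fewer control rats. Which rats were left out is not said. With each high fat rat left out in turn, the log2 difference here kept its sign, at 0.24 to 0.34. With each rat of either group left out it was 0.22 to 0.39. Leaving out more rats was not tested. The study used other software, GeneSpring, and the reason for the opposite direction was not tested. The difference over all rats lay mostly on the first slide, where the scaled signals were 27.1, 30.4 and 36.9 in control and 39.5, 47.6 and 51.8 in high fat rats. There the log2 difference was 0.56 (SE 0.174, within a slide from the group variances and not from limma), and every high fat rat was above every control rat. The same held for 8 of the 193 miRNAs tested, or 4.15%, and since this contrast chose miR-425 nothing is read from its being among them. On the second slide the log2 difference was 0.029 (SE 0.182), with controls at 32.4, 38.1 and 48.7 and high fat rats at 36.7, 41.5 and 42.0.

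Most miRNAs lay on the other side of 0. Of the 193 miRNAs tested, those detected on at least 6 arrays, 154 had a log2 difference below 0, with a median of -0.17. Relative to that median miR-425 was higher by 0.46. Under the other scalings the median ran from -0.00086 to 0.14 and the difference of miR-425 from 0.47 to 0.60, but relative to the median it was 0.46 to 0.47. In limma no miRNA of the 193 (0.00%) had an adjusted p under 0.05, and 2 (1.04%) had an unadjusted p under 0.05.

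Scaled miR-191* was 15.8 at the lowest, 19.7 at the median and 27.5 at the highest in control rats, and 12.2, 16.9 and 23.9 in high fat rats. The means were 20.5 ± 4.65 (SD, n = 6) and 17.5 ± 4.44 (SD, n = 6). The log2 difference was -0.23 (SE 0.200), near the median of all miRNAs tested, and turned to 0.075 without scaling. It was -0.21 (SE 0.160) on the first slide and -0.26 (SE 0.127) on the second. After scaling, the slides stood further apart than the diets, at 18.0 to 27.5 on the first and 12.2 to 18.3 on the second. Before scaling the slides overlapped, at 17.5 to 21.9 units on the first and 14.4 to 22.4 on the second.

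**Figure D2:**
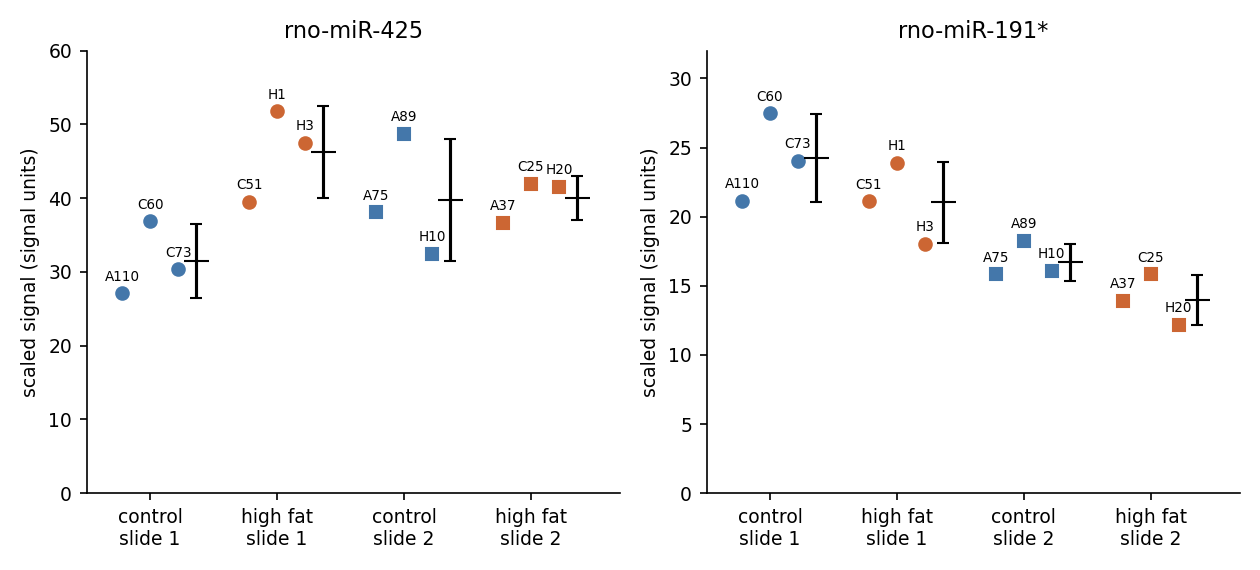
Scaled signal of rno-miR-425 (left) and rno-miR-191* (right) in signal units for each rat, by diet of the dam and slide. Points are rats with their labels, and the bars give the mean and SD of 3 rats. High fat rats lie above controls for miR-425 on slide 1 alone, a separation that 8 of the 193 miRNAs tested (4.15%) showed on that slide. Scaled miR-191* is lower on slide 2 in both groups, while its listed signals overlap between the slides.

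The ratio of miR-425 to miR-191* within 1 array is not changed by dividing the array by 1 factor. It need not be free of brightness, which over all rats miR-425 followed with r = 0.82 and miR-191* with r = 0.27. Within the slides r was 0.62 and 0.90 for miR-425 and 0.65 and 0.75 for miR-191*. Brightness was 864 to 1665 units in control and 1178 to 1911 in high fat rats. The part of brightness in the ratio was not tested. The ratio is compared here only between rats, since the 2 probes need not bind with equal strength. On the first slide the ratio was 1.26 in control rat C73, 1.28 in A110 and 1.34 in C60. It was 1.87 in high fat rat C51, 2.17 in H1 and 2.64 in H3. The groups of the first slide did not overlap, and the log2 difference was 0.77 (SE 0.146). Ratios of miR-425 to another miRNA detected on all arrays separated these groups in the same way for 105 of 161 partners, or 65.2%, so the separation was shared by most partners. On the second slide the ratio was 2.02 in control rat H10, 2.41 in A75 and 2.67 in A89, against 2.64 in A37, 2.65 in C25 and 3.41 in H20. Control rat A89 was above 2 of the 3 high fat rats, and the log2 difference was 0.29 (SE 0.170). Over all 12 rats the mean log2 ratio was 0.80 ± 0.49 (SD, n = 6) in control and 1.33 ± 0.30 (SD, n = 6) in high fat rats, a difference of 0.53 (SE 0.233), or 0.56 with quantile normalization. The second slide had the higher mean ratio in both groups, at 2.35 against 1.29 in control and 2.88 against 2.20 in high fat rats.

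**Figure D3:**
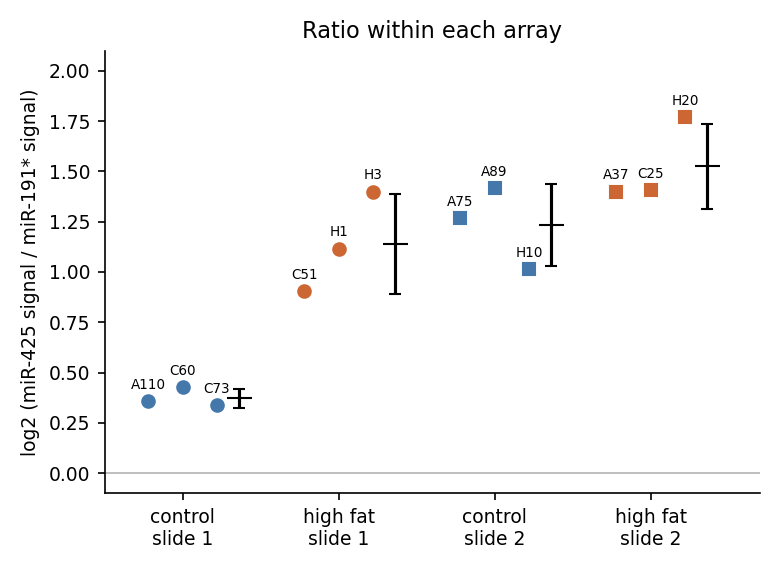
Log2 ratio of the miR-425 signal to the miR-191* signal of the same array, by diet of the dam and slide. Points are rats with their labels, and the bars give the mean and SD of 3 rats. The 3 control rats of slide 1 lie lowest, and on slide 2 control rat A89 lies among the high fat rats.

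No joint rise and fall of scaled miR-425 and miR-191* over the rats was detectable. Pearson's r of their log2 scaled signals was -0.12 (two-sided permutation test, p = 0.721, adjusted p = 0.721 over 3 relations) and Spearman's rho was -0.13 (permutation p = 0.70, adjusted p = 0.70). Without A110 and H1, the rats farthest from the median of miR-425, r was -0.25. It was -0.18 on the first slide (exact permutation p = 0.701, n = 6) and 0.25 on the second (exact permutation p = 0.663, n = 6). The sign depended on the scaling, at 0.26 without scaling and 0.39 with the 75th percentile of all miRNAs. The median software error of miR-191* on the log2 scale, 0.197, exceeded its SD within group and slide, 0.177. A joint change could therefore go undetected. Once the means of group and slide were removed r was 0.54, a value that was not tested.

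This can be set beside other miRNA neighbours. On the array 63 pairs of miRNAs detected on all arrays lie within 10 kb of each other on 1 strand, and their median r was 0.69, with quartiles of 0.44 and 0.85. Many of these pairs share a member, and all share the rats and the scaling. The pairs differ in level, with a mean scaled signal in control rats of 11127 for let-7a and 20.5 for miR-191*. The part of signal error in r was not tested. The pair of miR-425 and miR-191* was 1 of only 3 pairs of the 63 with an r below 0, and the other two were lower. The lowest was miR-29b with miR-29c* (r = -0.53) and the highest miR-24 with miR-27b (r = 0.98), both from clusters known to be cut from joint transcripts. For the 2 strands of 1 hairpin, detected together on all arrays in 19 cases, the median r was 0.52. All 13041 pairs of the 162 miRNAs had a median r of 0.22. With group and slide means removed the median of the 63 neighbouring pairs was 0.81, and 11 of them were at or below the 0.54 of miR-425 and miR-191*. With quantile normalization the pair was at 0.019, and 13 of the 63 were at or below that. Without rat H3 the median of the 63 was 0.61 and the pair was at -0.11, with 3 of the 63 at or below that. The r of miR-29b with miR-29c* was then -0.098.

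**Figure D4:**
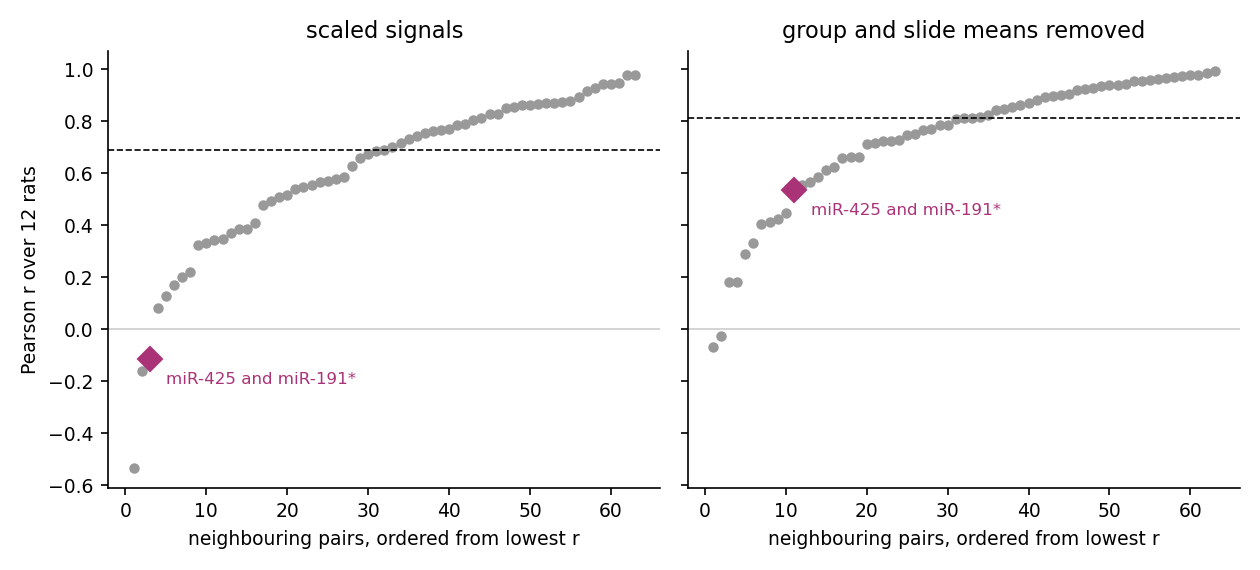
Pearson's r over the 12 rats for the 63 neighbouring pairs of miRNAs, ordered from the lowest, for log2 scaled signals (left) and after the means of group and slide were removed (right). The dashed line is the median of the 63 pairs, 0.69 and 0.81. The pair of miR-425 and miR-191* lies at -0.12 and at 0.54, and its sign on the left turns under other scalings.

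The miRNAs whose scaled signal was most like that of miR-425 lay elsewhere in the genome. They were miR-675* (r = 0.57), from the H19 transcript, miR-93 (r = 0.56), miR-17-5p (r = 0.52), miR-7a-1* (r = 0.48) and miR-365 (r = 0.48). The median r of the 161 other miRNAs with miR-425 was -0.0086, the lowest was -0.69 for miR-347, and miR-191* ranked 105. miR-93 and miR-17-5p are related members of the miR-17 family, shown here because they share a seed that neither miR-425 nor miR-191 has.
rno-miR-93-5p, chr12:22156894-22156916, minus strand: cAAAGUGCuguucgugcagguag
rno-miR-17-5p, chr15:98587861-98587883, plus strand, and chrX:137343615-137343637, minus strand: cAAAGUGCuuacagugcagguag
Scaled miR-93 was 76.0 ± 8.81 (SD, n = 6) in control and 84.8 ± 24.3 (SD, n = 6) in high fat rats. Scaled miR-17-5p was 42.4 ± 7.91 (SD, n = 6) and 40.7 ± 5.06 (SD, n = 6). Neither passed the test between the diets (limma, adjusted p = 0.775 and 0.913). With group and slide means removed r with miR-425 was 0.55 for miR-93 and 0.65 for miR-17-5p, but 0.28 for miR-675*, 0.24 for miR-7a-1* and 0.31 for miR-365. For miR-191* it was then 0.54.

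The closest to miR-191* were miR-702-3p (r = 0.88), miR-328a (r = 0.87), miR-2985 (r = 0.82), miR-3085 (r = 0.82) and miR-331 (r = 0.77). With group and slide means removed these became 0.42, 0.43, -0.098, -0.28 and 0.62, so the likeness of miR-2985 and miR-3085 rested on the means of slides and groups.

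miR-191 is used as a reference in qPCR, and its neighbour was compared with 13 miRNAs used for the same purpose. Of these 11 were detected on all 12 arrays, and miR-423 and miR-484 were, like miR-191, detected on none. The SD of the log2 scaled signal over the 12 rats was 0.280 for miR-425, rank 53 from the smallest among the 162 miRNAs, whose median was 0.338. Of the 11 reference miRNAs 8 varied less than miR-425. miR-26a ranked 5 (SD 0.184) and miR-103, known for a role in insulin sensitivity, ranked 7 (SD 0.188), while miR-24 ranked 110 (SD 0.402). The software's own error of miR-425 had a median of 0.172 on the log2 scale, and the SD within groups was 0.246. For miR-191* they were 0.197 and 0.345, and its SD within group and slide was 0.177. miR-191* ranked 87 with an SD of 0.351, against 9 with an SD of 0.240 before scaling, when miR-425 ranked 110 with 0.477.

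None of the 11 reference miRNAs passed the test between the diets (limma, 0 with an adjusted p under 0.05 and 0 with an unadjusted p under 0.05). Their log2 differences ran from -0.31 for miR-24 to 0.13 for miR-93, with a median of -0.16 beside -0.17 for all 193 miRNAs. They were below 0 for 9, among them let-7a (-0.22, SE 0.158), let-7i (-0.22, SE 0.158) and miR-16 (-0.14, SE 0.149). miR-361 was at 0.0035 (SE 0.153).

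**Figure D5:**
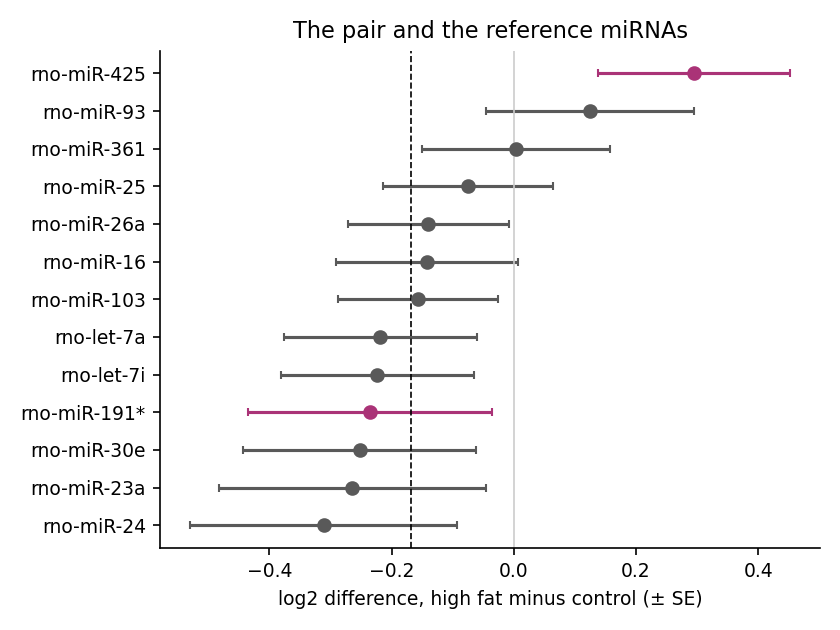
Log2 difference of the scaled signal, high fat minus control, with its standard error from limma, for miR-425 and miR-191* (purple) and the 11 reference miRNAs detected on all arrays (grey), 12 rats each. The dashed line is the median of the 193 miRNAs tested, -0.17. miR-425, which was chosen by this difference, lies at 0.29 and miR-191* near the median at -0.23.

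In these whole muscles fewer cells of a type and less RNA per cell cannot be told apart, so sums of scaled signals were taken over miRNAs typical of several cell types. The muscle miRNAs miR-1, miR-133a, miR-133b and miR-206 were detected on all 12 arrays, with sums of 158443 to 280572 in control and 142443 to 254534 in high fat rats. High fat rat H3 stood apart in the slow fibre miRNAs miR-499 and miR-208b-3p, with a sum of 366 against 5085 or more in the other high fat rats and 4588 to 9249 in control rats. H3 also had the lowest sum of all 12 rats for the endothelial miRNAs (2121), the smooth muscle miRNAs (2859), the leukocyte miRNAs (1219) and the fibroblast miRNAs (2342). Control rats had 4665 to 5895, 5433 to 6641, 1411 to 1897 and 2755 to 7094 for these 4 sets, and the other high fat rats began at 4345, 4860, 1482 and 2469. Medians of the 4 sets, in that order, were 5235, 5746, 1671 and 5017 in control rats. In all high fat rats they were 5200, 5531, 1608 and 2818, and the fibroblast sum reached 7391. The erythroid sum was 643 to 2636 in control and 458 to 3295 in high fat rats, highest in H3. The liver miRNA miR-122 ran from 0 to 406 in control and from 0 to 302 in high fat rats. Of the epithelial set miR-200c, miR-141 and miR-429 were detected on no array, and H3 was the only rat with a sum above 0 (21.0). Without H3 the log2 difference of miR-425 was 0.26. The part of cell composition in these values was not tested.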

How the data were processed

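Total RNA of 12 soleus muscles (100 ng each) was labelled with Cy3 and hybridised to 1-colour Agilent rat miRNA arrays. The authors deposited a total intensity per miRNA, as extracted by the scanner software, with an error and a flag for detection, with spots combined and background subtracted, but without normalization between arrays. The software version and genome build are not given in the sources used here. The deposited value table held the same intensity values, with 0 cells that differed. The 22 control rows were left out.

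Signals were divided by their array's 75th percentile over the 162 miRNAs that every array detected and multiplied by a common factor of 1354. Values under 5.17 were set to it, and log2 was taken. The 193 miRNAs detected on at least 6 arrays were fitted in limma 3.58.1 (R 4.3.3), as high fat minus control, and adjusted after Benjamini and Hochberg. Standard errors of single miRNAs over all rats came from this fit. Those within a slide, and all of those of the ratio, came from the group variances without limma. Precision is limited by 6 rats per group. Correlations used 100000 permutations over all rats, regardless of slide and diet, or all permutations within a slide. Sequences and neighbours came from RefSeq (GRCr8), which placed 133 of the 162 miRNAs.

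Named were the pair, its star strands, seed mates, the 5 miRNAs closest in r, 13 reference miRNAs, the extreme neighbouring pairs and cell type sets. Members and lists were chosen with earlier results of these data known. Alternatives covered scaling, floor, detection filter, slide and label letter as blocks, array weights, the value table and each rat left out. Those for miR-191* were chosen after seeing the data.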

Additional observations from a re-analysis of the deposited data

How the results depend on the processing

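The 4 results planned for miR-191 (diet difference, ratio, correlation and rank) have no value under any setting, since it was detected on no array. No paired analysis was possible because the rats' labels pair no rats across the diets. The log2 difference of miR-425 between the diets was above 0 under all 22 alternatives, at 0.60 without scaling and 0.22 to 0.39 with each rat left out. The value table, both floors and slide as a block could not change it and left it at 0.29. Since this difference chose miR-425, nothing is read from its sign. The rank of miR-425 by SD moved from 53 to 108 with quantile normalization, 110 without scaling and 97 with scaling to the median. It ran from 27 (without A110) to 73 with each rat left out. The correlation of miR-425 with miR-191* became 0.39 with the 75th percentile of all miRNAs, 0.26 without scaling and 0.54 with group and slide means removed, and was -0.33 to 0.021 with each rat left out. The diet difference of their log2 ratio was 0.36 to 0.65 under 21 alternatives. Scalings that divide an array by 1 factor cannot change it, and it stayed at 0.53 under those. The diet difference of miR-191* was below 0 under 21 of 22, the exception being 0.075 without scaling. With each rat left out the ratio's difference was 0.44 to 0.65 and that of miR-191* -0.33 to -0.14. No miRNA passed an adjusted p of 0.05 in limma under any of 24 alternatives, while 1 to 15 (15 without H1) had an unadjusted p under 0.05. Signals of miR-191* under 5 times the lowest detected signal limit its precision.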
